A study of Mus musculus with 81 samples.

Results

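The less used V segments TCRBV14-01, TCRBV17-01, TCRBV20-01, TCRBV23-01, TCRBV24-01 and TCRBV30-01 of the mouse TCRβ locus, 6 in all, were followed in all 81 libraries of the series by taking every rearrangement whose resolved V name starts with 1 of the 6 names. They made up 66079 of 581514 rearrangement rows (11.36%), with 19787 rows for TCRBV20, 15186 for TCRBV14, 14896 for TCRBV24, 10760 for TCRBV17, 3956 for TCRBV23 and 1494 for TCRBV30. Among the 35 V segments seen, ordered by their mean share of in-frame templates in blood, TCRBV20 ranked 14, TCRBV14 ranked 18, and TCRBV17, TCRBV24, TCRBV23 and TCRBV30 ranked 19 to 22. TCRBV20 therefore stood above TCRBV15, TCRBV26 and TCRBV12-02 in these mice, and 13 segments ranked below TCRBV30.

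The libraries were made with the immunoSEQ assay, a bias-controlled multiplex PCR of rearranged TCRβ genes, on genomic DNA of 27 Pep Boy mice, a CD45.1 congenic strain on the B6 background (B6.SJL-Ptprc<a> Pepc<b>/BoyJ). In the treatment experiment, 15 mice with subcutaneous EG7.OVA tumors were all given 1e6 naïve OT-1 cells, whose TCR is a transgene that recognises OVA, and were then dosed on days 0 and 3. The control arm got 1e9 mRBC-CTRL (control mouse red blood cells). The other arms got 1e9 or 2.5e8 of the engineered product mRBC-OVA-4-1BBL-IL-12, which displays the OVA peptide on MHC class I together with 4-1BBL and IL-12. Blood was taken on day 0, after the OT-1 transfer, and on day 7 together with the tumor. The rechallenge experiment followed 7 mice cured of EG7.OVA by the 2.5e8 dose, given after 1e6 OT-1 cells. They were bled on days 65 and 73 around a second EG7.OVA challenge on day 66. They were bled again before and on day 136 after a challenge with EL4 on day 127. Another 5 age-matched naive mice were given 5e5 OT-1 cells on day 65 and a first EG7.OVA challenge on day 66. These naive mice were bled on days 65 and 73. EL4 is a T-cell lymphoma line and EG7.OVA its OVA-expressing derivative. Tumor DNA can therefore hold rearrangements of tumor cells as well as of infiltrating T cells. From which of these cells a member's rearrangement came was not tested. The cured mice are those that had rejected a first tumor. No RNA was measured, and the T cells were not sorted, so the cells behind a rearrangement could not be checked against marker genes.

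Each V segment encodes most of the variable domain of a TCRβ chain and is joined to a D and a J segment in the developing thymocyte, with bases lost and added at the joints. The junction forms the CDR3, the loop that contacts peptide. A joint that shifts the reading frame gives no protein, yet it stays in the DNA of a T cell whose other allele made a productive joint. A V segment that can make no protein is therefore seen mainly as such a passenger, without selection on its junctions. The Vβ17 gene, named Trbv24 in the current nomenclature, is known to be non-functional in many inbred strains including B6 because of a stop codon, and functional in SJL.

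The last bases of each V segment were read from the deposited rearrangements and are shown because they hold the codon in which TCRBV24 differed from the other members. The capitals mark the codon 2 positions before the conserved cysteine at which CDR3 begins.
TCRBV14-01: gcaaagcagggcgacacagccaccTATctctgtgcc
TCRBV17-01: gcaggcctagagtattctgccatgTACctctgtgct
TCRBV20-01: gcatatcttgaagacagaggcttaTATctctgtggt
TCRBV23-01: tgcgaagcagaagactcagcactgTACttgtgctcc
TCRBV24-01: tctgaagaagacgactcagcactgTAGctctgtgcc
TCRBV30-01: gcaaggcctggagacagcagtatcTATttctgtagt
Each of these 36-base stretches was carried by 95.9% to 97.7% of the distinct rearrangements of its segment. TAT and TAC, both tyrosine codons, filled the marked position in 98.7% to 99.9% of the rearrangements of the other members. In TCRBV24 the position held TAG, a stop codon, in 99.8% of 14761 rearrangements, and 4530 of the 4539 TCRBV24 rearrangements that the files call in-frame carried it. The in-frame call of the files thus rests on the CDR3 and not on this codon. The files name the TCRBV24 allele as *02 and every other member as *01.

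All 6 names matched a symbol of the RefSeq gene table (assembly GRCm38.p6), Trbv14, Trbv17, Trbv20, Trbv23, Trbv24 and Trbv30, on chromosome 6. Trbv23 and Trbv24 are neighbours between the pseudogenes Trbv22 and Trbv25. Trbv14 lies between Trbv13-3 and Trbv15, Trbv17 between Trbv16 and the pseudogene Trbv18, and Trbv20 between Trbv19 and Trbv21. Trbv30 lies next to Trbd1, the D segment, with Trbv29 on its other side. The table gives all 6 the biotype of a V segment and none that of a pseudogene, Trbv24 included.

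Usage is given below as the share of in-frame templates (counted genomes) of a library, without the OT-1 CDR3 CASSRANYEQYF and without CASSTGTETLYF, which would otherwise set the denominator. These usable templates numbered 482 to 23598 per library (median 6295), with 11484 to 23598 in mRBC-CTRL tumors, 2589 to 13786 in tumors at 2.5e8 and 830 to 4238 in tumors at 1e9. The lowest, 482, was the day 7 blood of mouse 5 at 1e9. A share cannot tell more cells with a segment from fewer cells with the others. The labels number the mice of each group, so that replicates are separate animals.

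The frame of the rearrangements was compared first, with each of the 27 mice as 1 observation and its distinct rearrangements pooled over its libraries. TCRBV24 stood far below the rest, with 30.9% ± 2.24 (SD, n = 27 mice) of its rearrangements in-frame, from 28.3% to 38.1% between mice, against 66.0% ± 0.951 for all other V segments of the same mice. The difference was -35.0 percentage points, with the segment below the others in 27 of 27 mice (two-sided permutation test by sign flips, 100000 resamples, p = 2e-05, the smallest these resamples give, and adjusted p = 2.82e-05 over the 24 segments tested). Over all mice, TCRBV24 gave 4539 in-frame, 9821 out-of-frame and 401 stop-containing rearrangements. In all, 4 of the 6 members were called different from the remaining segments, where 91.7% of all segments tested were called and 33.3% were called below, so that a difference as such is common. The non-members TCRBV21 and TCRBV22 lay about as low as TCRBV24, TCRBV21 at 30.4% ± 6.59 and TCRBV22 at 26.8% ± 7.26.

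**Figure D1:**
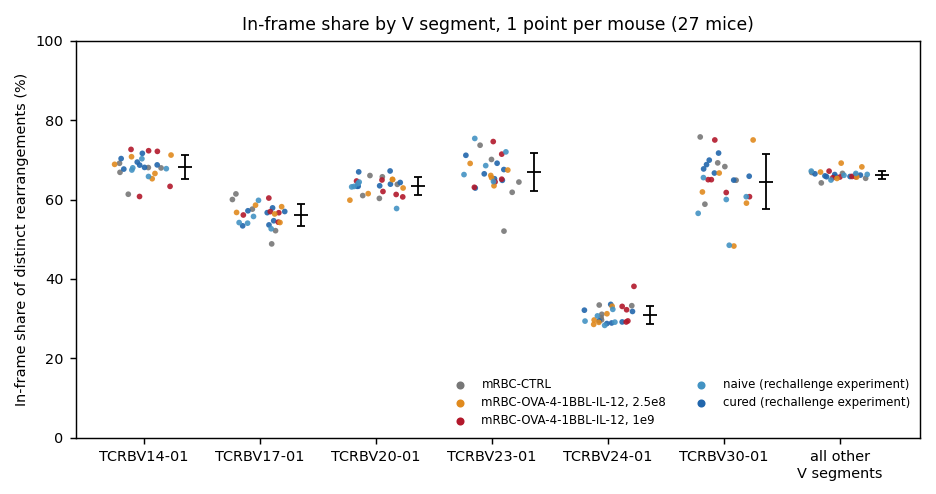
In-frame share of distinct rearrangements (y axis, percent) for the 6 segments and for all other V segments (x axis), with 1 point per mouse and bars for the mean and SD of 27 mice. The TCRBV24 points lie between 28.3% and 38.1% and the TCRBV17 points between 48.8% and 61.4%.

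Among the 6 members TCRBV17 held the next lowest in-frame share (the non-member TCRBV04 lay lower, at 49.3%), with 56.1% ± 2.82 (SD, n = 27, range 48.8% to 61.4%) against 65.2% in the others, a difference of -9.09 points in 27 of 27 mice (permutation test, adjusted p = 2.82e-05). It holds no stop codon at the position shown above in more than 0.0188% of its rearrangements. TCRBV20 lay at 63.3% ± 2.23, lower by 1.77 points on average and in 21 of 27 mice (adjusted p = 0.000192). That call was lost with blood libraries alone (-1.05 points, adjusted p = 0.0701) and with the rechallenge experiment alone (-1.27 points, adjusted p = 0.0551). TCRBV14 lay above the others at 68.2% ± 3.03, with a difference of 3.23 points and 23 of 27 mice above (adjusted p = 5.05e-05). For TCRBV23, 66.9% ± 4.75, and TCRBV30, 64.5% ± 6.84, the difference from the others did not pass the test (1.88 points with adjusted p = 0.0689 and -0.506 points with adjusted p = 0.71). TCRBV23 was called with the rechallenge experiment alone (2.87 points, adjusted p = 0.0249). When templates were counted in place of distinct rearrangements, the calls of TCRBV17 and TCRBV24 stood, and those of TCRBV14 and TCRBV20 did not (adjusted p = 0.299 each).

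Between groups of libraries, means of the TCRBV24 in-frame share of distinct rearrangements ran from 28.9% ± 4.06 (SD, n = 7) in cured mice after EG7.OVA to 36% ± 6.78 (SD, n = 5) in tumors at 2.5e8. Counted by templates, single tumors spread further, from 2.57% in an mRBC-CTRL tumor, where 1 out-of-frame rearrangement was large (given with the non-productive rearrangements), to 66.1% in a tumor at 2.5e8. For TCRBV17 the group means by distinct rearrangements ran from 51.5% ± 10.7 (day 0 blood of mRBC-CTRL mice, n = 5) to 61.4% ± 4.11 (their tumors, n = 5), and the lowest of these libraries held 60 and 80 TCRBV17 rearrangements.

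Other measures of the junctions, chosen after seeing the data, were compared as well. Among rearrangements that kept the frame, the share with a stop codon in the CDR3 was 7.96% ± 3.39 (SD, n = 27) for TCRBV24 and 1.52% ± 0.156 for the other segments, higher in 26 of 27 mice (permutation test, adjusted p = 2.82e-05, with 87.5% of segments called). The non-members TCRBV04 (15.2%) and TCRBV22 (17.9%) lay above TCRBV24, and TCRBV21 held 5.56%. TCRBV14, TCRBV17, TCRBV20 and TCRBV30 lay below the others, as 70.8% of all segments did, with 0.991%, 1.18%, 0.679% and 0.542% (adjusted p from 2.82e-05 to 0.00677). TCRBV23 held 1.21% (adjusted p = 0.188). The spread of CDR3 length, as the SD in bases within a mouse, was greater by 0.558 ± 0.0914 in out-of-frame than in in-frame rearrangements of the other V segments. For TCRBV24 the same difference was 0.0893 ± 0.485 bases, and for TCRBV20 and TCRBV30 it was 0.933 ± 0.445 and 1.20 ± 1.56, given here without a test. TCRBV24 took 5.17% ± 0.389 of all out-of-frame rearrangements of a mouse but 1.26% ± 0.135 of the in-frame ones, a ratio of 0.243. The ratio was 0.676 for TCRBV17, 0.910 for TCRBV20, 0.964 for TCRBV30, 1.07 for TCRBV23 and 1.14 for TCRBV14. By out-of-frame joints TCRBV24 was thus the most used of the 6 segments, ahead of TCRBV20 at 3.69% ± 0.301.

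J pairing was compared as the share of rearrangements joined to the J2 cluster, which lies downstream of the J1 cluster and of the second D segment. Among in-frame rearrangements 5 of 6 members differed from the other segments, 3 above and 2 below (83.3% of all segments differed and 37.5% lay below). TCRBV30 used J2 most, in 76.0% ± 5.94 (SD, n = 27) against 63.7% ± 0.917 in the others, higher in 26 of 27 mice (permutation test, adjusted p = 3.2e-05). TCRBV17, at 69.4% ± 4.09, and TCRBV14, at 67.1% ± 3.67, were also higher (5.79 and 3.54 points, in 25 and 23 of 27 mice, adjusted p = 3.2e-05 each). TCRBV20, at 59.2% ± 3.38, and TCRBV24, at 60.6% ± 4.24, were lower (-4.63 and -3.13 points, below in 26 and 19 of 27 mice, adjusted p = 3.2e-05 and 0.00064). Counted by templates, the call of TCRBV20 was lost (-3.28 points, adjusted p = 0.219). TCRBV23, at 61.8% ± 7.82, did not pass the test (adjusted p = 0.241).

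In out-of-frame rearrangements, which make no protein, all 6 members differed from the others in J2 share (87.5% of all segments differed and 50% lay below), 2 above and 4 below, with TCRBV30 now below. It used J2 in 62.4% ± 10.6 of out-of-frame rearrangements against 67.4% ± 1.27 in the others (-4.92 points, permutation test, adjusted p = 0.0278). TCRBV14 and TCRBV17 again lay above (2.95 and 3.84 points, adjusted p = 0.0052 and 0.000111), and TCRBV20, TCRBV23 and TCRBV24 below (-3.84, -5.24 and -6.31 points, adjusted p = 4.36e-05, 0.00751 and 4.36e-05). Counted by templates, 1 of the 6, TCRBV24, was called. The in-frame share minus the out-of-frame share, added after seeing the data, was 13.5 points ± 12.2 for TCRBV30 and -3.68 ± 1.28 for the others, a difference of 17.2 points that was positive in 24 of 27 mice (adjusted p = 6e-05, with 70.8% of segments called). For TCRBV24 it was -0.750 ± 3.86 against -3.93 in the others (3.18 points, 20 of 27 mice, adjusted p = 0.00196). TCRBV14, TCRBV17, TCRBV20 and TCRBV23 were not called.

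By single J segments, TCRBV30 paired with J2-7 in 24.6% ± 7.59 of in-frame and 14.7% ± 8.93 of out-of-frame rearrangements, and with J2-5 in 15.2% ± 6.97 and 10.95% ± 8.99. J1-3, J1-5 and J1-6 took 1.499%, 1.08% and 0.747% of its in-frame but 4.46%, 3.78% and 3.204% of its out-of-frame rearrangements. The out-of-frame values rest on 498 rearrangements over 27 mice, and the in-frame values on 972. TCRBV24, by contrast, had nearly the same J profile in both frames, with J2-7 at 17.5% ± 3.29 and 17.7% ± 2.10, J2-5 at 10.1% and 11.01%, and J1-1 at 10.2% and 10.3%.

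**Figure D2:**
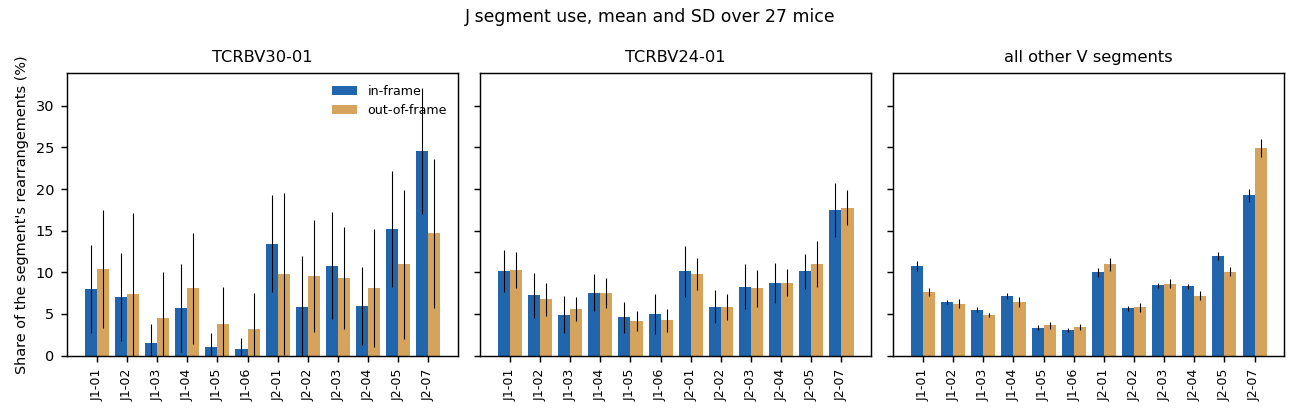
Share of rearrangements (y axis, percent) joined to each of the 12 commonly used J segments (x axis) for TCRBV30, TCRBV24 and all other V segments, in-frame and out-of-frame, as the mean and SD of 27 mice. In TCRBV30 the J2-7 bar is higher in-frame (24.6%) than out-of-frame (14.7%), while the TCRBV24 bars lie close together in both frames.

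CDR3 length followed the V segment in all 6 members (87.5% of segments were called, 45.8% as shorter). In-frame CDR3s were shortest for TCRBV30, 39.2 bases ± 0.765 (SD, n = 27), and TCRBV20, 39.3 ± 0.282, against 41.7 to 41.8 in the other segments, below in 27 of 27 mice for both (permutation test, adjusted p = 3e-05 each). TCRBV14 was shorter by 0.828 bases (40.9 ± 0.349, 27 of 27 mice, adjusted p = 3e-05). TCRBV24 was longer by 1.13 bases in 27 of 27 mice (42.9 ± 0.448, adjusted p = 3e-05), and TCRBV17 and TCRBV23 were longer by 0.382 and 0.340 bases in 24 and 22 of 27 mice (adjusted p = 0.000107 and 0.000888). The CDR3 began with CAS in 98.9% of TCRBV14, 98.2% of TCRBV17 and 96.8% of TCRBV24 in-frame rearrangements. It began with CGA in 96.8% of TCRBV20, and with CSS in 98.7% of TCRBV23 and 97.6% of TCRBV30.

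The order of the 6 blood means was also the order within the library in 46 of 66 blood libraries. TCRBV20 took 3.55% ± 0.53 of in-frame templates (SD, n = 66 libraries, 2.61% to 5.21%, median 3.49%), and TCRBV14 took 3.06% ± 0.951 (1.89% to 6.79%, median 2.79%). These neighbours differed by less than the spread of TCRBV14. TCRBV17 followed at 1.75% ± 1.18 (1.00% to 10.8%, median 1.60%) and TCRBV24 at 1.17% ± 0.184 (0.746% to 1.73%, median 1.19%), again within the spread of the more variable segment. TCRBV23, at 0.696% ± 0.132 (0.357% to 1.08%, median 0.692%), and TCRBV30, at 0.255% ± 0.109 (0.113% to 0.830%, median 0.231%), lay below with a gap to each neighbour above them that exceeded both SDs. The 6 together took 10.5% ± 1.45 (8.69% to 18.4%). The highest sum, in the day 7 blood of mouse 4 at 2.5e8, was set by TCRBV17, whose share there was 10.8%.

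**Figure D3:**
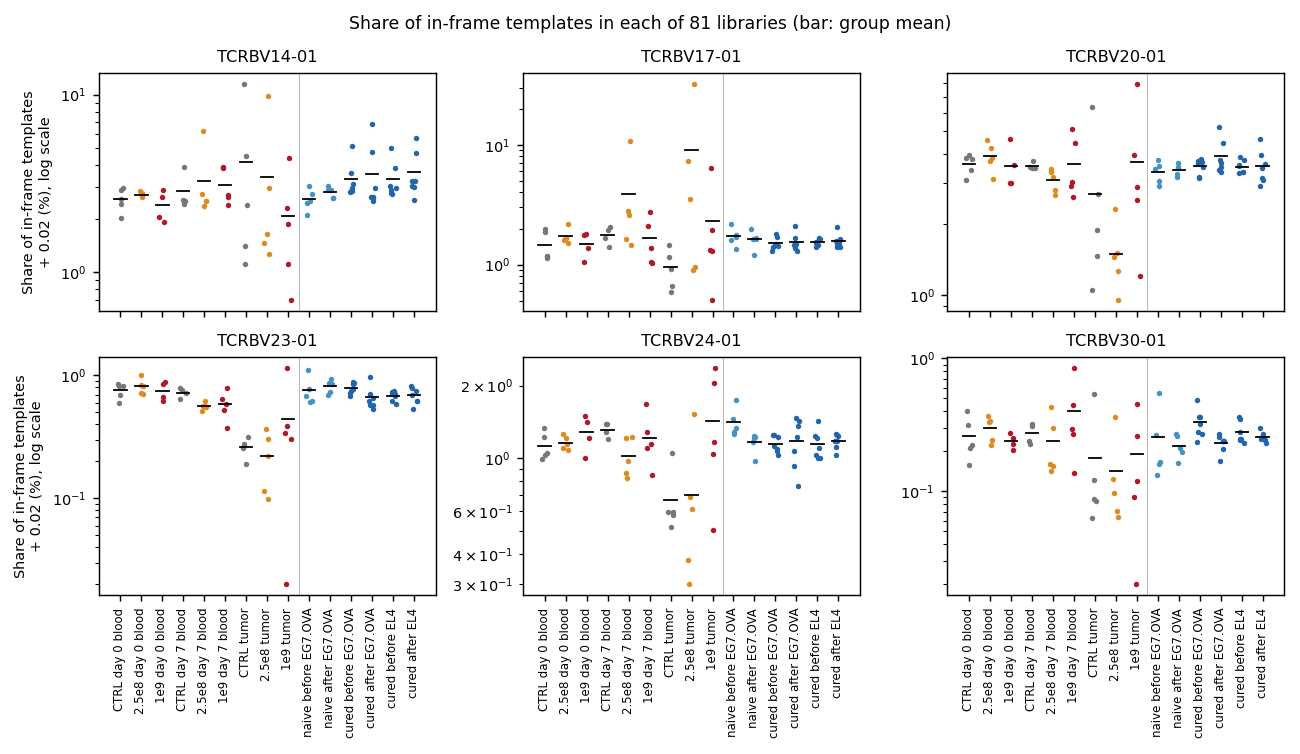
Share of in-frame templates (log y axis, percent plus 0.02) of each segment by group of libraries (x axis), with 1 point per library and a line at the group mean. In blood most points of a segment lie close together, while tumor points spread widely, with 32.1% for TCRBV17 in 1 tumor at 2.5e8.

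Tumors varied far more between mice than blood did. TCRBV17 took 0.895%, 0.644%, 0.5678%, 1.43% and 1.13% of templates in tumors of mRBC-CTRL mice 1 to 5. It took 0.936%, 7.29%, 0.880%, 32.1% and 3.51% in tumors at 2.5e8, and 1.31%, 0.482%, 6.39%, 1.27% and 1.91% at 1e9. Tumors of 3 mice at 2.5e8 and of 2 at 1e9 thus lay above every mRBC-CTRL tumor, and the groups overlapped. The mean was 8.94% ± 13.2 at 2.5e8 and 2.27% ± 2.36 at 1e9 against 0.934% ± 0.356 in mRBC-CTRL (SD, n = 5 each). Both doses are set against the same mRBC-CTRL mice. By edgeR's quasi-likelihood test the log2 fold change was 3.25 ± 0.94 (SE) at 2.5e8 (adjusted p = 0.0937) and 1.3 ± 0.64 at 1e9 (adjusted p = 0.198), and the exact permutation test of the shares at 2.5e8 gave p = 0.0873.

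No member was called in tumors at either dose, where 0% of the 23 segments tested were called. At unadjusted p under 0.05, 1 member (TCRBV17) passed at 2.5e8 and 0 at 1e9, where 3 and 4 of all 23 segments did. DESeq2 called TCRBV17 at 2.5e8 (log2 3.73, adjusted p = 0.00169). The value at 2.5e8 rested on mouse 4. Without that tumor it was 1.75 (adjusted p = 0.310), without the largest clone of each segment 1.13 (adjusted p = 0.247), and by distinct rearrangements 0.22. Without mouse 1 or mouse 3 at 2.5e8 it passed (3.55 each, adjusted p = 0.0326 and 0.0331).

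TCRBV14 took 4.51%, 1.38%, 1.09%, 2.36% and 11.4% in mRBC-CTRL tumors, 1.62%, 9.82%, 1.25%, 1.43% and 2.96% at 2.5e8, and 1.85%, 1.08%, 4.36%, 2.27% and 0.672% at 1e9. TCRBV20 took 1.87%, 1.03%, 6.34%, 2.68% and 1.45% in mRBC-CTRL tumors, 2.31%, 1.44%, 1.25%, 0.927% and 1.49% at 2.5e8, and 2.86%, 2.53%, 1.19%, 7.93% and 3.95% at 1e9. The groups overlapped in both segments, and the highest tumor of TCRBV14 was an mRBC-CTRL tumor and that of TCRBV20 a tumor at 1e9. The log2 fold changes against mRBC-CTRL were -0.28 and -1.01 for TCRBV14 and -0.85 and 0.47 for TCRBV20, at 2.5e8 and 1e9 (edgeR, adjusted p from 0.349 to 0.845).

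TCRBV24 took 0.499%, 0.575%, 0.559%, 1.03% and 0.575% in mRBC-CTRL tumors, 0.595%, 0.279%, 0.357%, 1.51% and 0.669% at 2.5e8, and 1.14%, 0.482%, 2.03%, 1.02% and 2.35% at 1e9 (log2 0.06 and 1.14, edgeR, adjusted p = 0.924 and 0.198). TCRBV23 and TCRBV30 were the least used members in 13 of 15 tumors, TCRBV23 with 0.255% and TCRBV30 with 0.0773% as the median of 15 tumors. TCRBV23 was not seen among 830 templates in the tumor of mouse 2 at 1e9, which allows a share of up to 0.361%, and TCRBV30 was not seen among 3872 in that of mouse 5 at 1e9, which allows up to 0.0775%. These limits cover counting error only. Neither was called between arms (log2 from -0.37 to 0.88, edgeR, adjusted p from 0.498 to 1).

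In day 7 blood no member was called at either dose by edgeR (0% of 23 segments tested) or DESeq2. At 2.5e8, 2 members passed at unadjusted p under 0.05, and at 1e9 0 did, where 6 and 2 of all 23 segments passed. TCRBV23 took 0.545%, 0.531%, 0.604%, 0.544% and 0.495% at 2.5e8 and 0.698%, 0.770%, 0.739% and 0.620% in mRBC-CTRL mice, so the groups did not overlap. The log2 fold change was -0.38 ± 0.13 (SE, edgeR, adjusted p = 0.142), and the exact permutation test gave p = 0.00794, the smallest these group sizes allow, and 0.156 after adjustment. TCRBV20 did not overlap either, with 3.07% ± 0.335 at 2.5e8 (SD, n = 5) and 3.53% ± 0.121 in mRBC-CTRL mice (n = 4), at log2 -0.21 ± 0.09 (adjusted p = 0.174). Overlap of the groups is given here for the members only, so its absence cannot be read as particular to them. TCRBV24 took 1.00% ± 0.188 and 1.29% ± 0.0876 (log2 -0.35 ± 0.14, adjusted p = 0.154). The median over all segments of this comparison was -0.15.

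From day 0 to day 7, 0 members were called by edgeR or DESeq2, where edgeR called 29.2% of 24 segments. This comparison pooled the blood of 13 mice of the treatment experiment over its arms, mRBC-CTRL included. At unadjusted p under 0.05, 2 of 6 members and 10 of all 24 segments passed. TCRBV17 took 1.58% ± 0.337 on day 0 and 2.48% ± 2.56 on day 7 (SD, n = 13), higher on day 7 in 8 of 13 mice (log2 0.42 ± 0.18, edgeR with the mouse as a block, adjusted p = 0.0855). TCRBV23 took 0.754% ± 0.118 and 0.616% ± 0.0992, higher on day 7 in 3 of 13 mice (log2 -0.26 ± 0.12, adjusted p = 0.117), and the exact sign-flip permutation test of its shares passed (adjusted p = 0.0469). Without the block by mouse both were called (adjusted p = 0.0485 each). TCRBV17 was also called without mouse 4 at 1e9 (log2 0.49, adjusted p = 0.0403). TCRBV14 gave 0.25, TCRBV20 -0.09, and TCRBV24 and TCRBV30 -0.05 each.

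Tumors were then set against the day 7 blood of the same mice, in 14 mice with both, pooled over the arms with mRBC-CTRL included. TCRBV23 and TCRBV30, the least used members, and TCRBV20 fell, 3 of 6 members, where 43.5% of the 23 segments tested were called lower and 47.8% were called in either direction. TCRBV23 took 0.291% ± 0.265 in tumor and 0.598% ± 0.118 in blood (SD, n = 14), with a tumor range from 0% to 1.13% and a blood range from 0.357% to 0.775%. It was higher in the tumor of 2 of 14 mice (log2 -1.28 ± 0.33, edgeR with the mouse as a block, adjusted p = 0.00615). TCRBV30 took 0.125% ± 0.126 in tumor and 0.286% ± 0.184 in blood, and was higher in the tumor of 2 of 14 mice (log2 -1.37 ± 0.42, adjusted p = 0.0101). TCRBV20 took 2.67% ± 2.10 and 3.40% ± 0.685, higher in the tumor of 3 of 14 mice (log2 -0.66 ± 0.25, adjusted p = 0.0331). The median over all segments was -0.58 and that of the members -0.61, so that TCRBV20 lay near the shift common to the segments. TCRBV14, TCRBV17 and TCRBV24 did not pass (log2 -0.43, -0.12 and -0.56, adjusted p = 0.136, 0.714 and 0.0895).

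**Figure D4:**
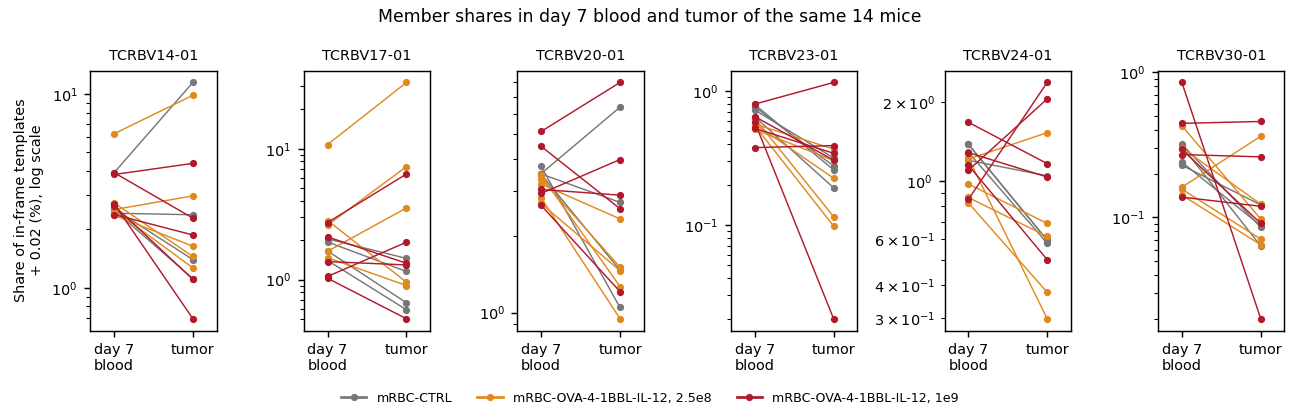
Share of in-frame templates (log y axis, percent plus 0.02) of each segment in day 7 blood and tumor (x axis), with 1 line for each of 14 mice. For TCRBV23 and TCRBV30, 12 of 14 lines fall from blood to tumor, while TCRBV14 and TCRBV17 each hold a few tumors far above their blood.

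These 3 calls depended on how the libraries were scaled. TMM and DESeq2 size factors brought the median of all segments to 0.03 and 0.00, and under both none of the 3 was called (TCRBV23 -0.64 under each, TCRBV30 -0.73 and -0.75, TCRBV20 -0.04 under each). By distinct in-frame rearrangements, TCRBV20 fell by 0.35 on the log2 scale, TCRBV23 and TCRBV30 gave -0.28 and -0.27 without a call (adjusted p = 0.207 and 0.460), and TCRBV17 rose by 0.32 (adjusted p = 0.00205), against -0.12 by templates. Without the largest clone of each segment TCRBV23, TCRBV30 and TCRBV20 were all called (log2 -0.86, -1.17 and -0.54). TCRBV20 was no longer called after leaving out any of 7 mice (mouse 2 or 5 of mRBC-CTRL, 2, 3, 4 or 5 at 2.5e8, or 3 at 1e9, with adjusted p from 0.0513 to 0.0648). The exact sign-flip test of the shares passed for TCRBV23 and TCRBV30 (adjusted p = 0.015 and 0.0393) and not for TCRBV20 (adjusted p = 0.309). Without rearrangements with 1 template, edgeR called TCRBV23 and TCRBV30 (adjusted p = 0.00731 and 0.0342) and not TCRBV20 (adjusted p = 0.0526).

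In the rechallenge experiment no member was called in any of the 5 comparisons, where 8.33% of the 24 segments tested were called in naive mice and 0% in the other 4 comparisons. DESeq2 called no member either. Around the EG7.OVA rechallenge of the 7 cured mice, TCRBV30 took 0.217% to 0.468% on day 65 (median 0.303%) and 0.149% to 0.249% on day 73 (median 0.220%), lower on day 73 in 7 of 7 mice. The log2 change was -0.57 ± 0.18 (SE, edgeR with the mouse as a block, adjusted p = 0.15), and the exact sign-flip test gave p = 0.0156, the smallest 7 mice allow, and 0.375 after adjustment. The libraries held 7 to 46 TCRBV30 templates. Without the largest clone of each segment this change was called (-0.66, adjusted p = 0.0142). TCRBV23 was lower on day 73 in 6 of 7 mice (0.770% ± 0.0793 and 0.644% ± 0.151, log2 -0.28, adjusted p = 0.428). At unadjusted p under 0.05, 2 members passed around EG7.OVA, 1 (TCRBV14, log2 0.13, higher in 5 of 7 mice, adjusted p = 0.334) around EL4, and 0 in naive mice. Of all 24 segments, 2, 2 and 4 passed in the same order.

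In the 5 naive mice TCRBV24 was not called, with 1.40% ± 0.201 before and 1.14% ± 0.111 after EG7.OVA and a lower share in 5 of 5 mice (log2 -0.28, edgeR, adjusted p = 0.312; exact sign-flip p = 0.0625, the smallest 5 mice allow). On day 65, before the challenge, the cured mice held 1.13% ± 0.0905 (SD, n = 7, 1.01% to 1.23%) of TCRBV24 and the naive mice 1.24% to 1.73%. These did not overlap, which is given here for the members only (log2 -0.29 ± 0.13, edgeR, adjusted p = 0.233). The exact permutation test of these shares was past the threshold (p = 0.00126, adjusted p = 0.0303). TCRBV14 lay at 3.32% ± 0.825 in cured and 2.55% ± 0.36 in naive mice (log2 0.38, adjusted p = 0.233, and 0.00893 with no filter on low counts). At unadjusted p under 0.05, 2 members passed here, where 4 of all 24 segments did. No member was called for a difference in the change around EG7.OVA between cured and naive mice (edgeR interaction, adjusted p from 0.429 to 0.814). At unadjusted p under 0.05, 0 members and 4 of all 24 segments passed.

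Over the 4 bleeds of the cured mice, TCRBV14 was the member that differed most between animals. The mean of its share ran from 2.76% in mouse 7 to 5.12% in mouse 6, with an SD of 1.01 between mice and 0.607 within a mouse. In mouse 6 a single clone held 1.94% to 2.69% of templates. By distinct rearrangements TCRBV14 took 2.63% to 2.95% in mouse 6 and 2.35% to 2.89% in mouse 7. In each of the other 5 members the SD within a mouse was the larger value, as for TCRBV20 (0.442 and 0.310) and TCRBV24 (0.15 and 0.0898). The SD between mice is that of means over 4 bleeds, and the SD within a mouse is that of single bleeds. They are not on the same scale, so their order does not show whether mice differ more than bleeds.

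Single clones held a large part of several segments in tumors. The largest clone took, as the median of 15 tumors, 44.4% of the templates of TCRBV14, 28.0% of TCRBV17, 41.7% of TCRBV20, 30% of TCRBV23, 21.0% of TCRBV24 and 44.2% of TCRBV30. In blood of the treatment experiment the medians were 4.13%, 5.99%, 3.26%, 10%, 5.73% and 25% in the same order. In blood of the rechallenge mice, which are other animals, they were 1.97%, 3.05%, 2.56%, 5.95%, 3.87% and 13.3%. The less used segments hold few templates in blood. No rearrangement of a member reached 1% of all templates in 2 or more tumors, and 13 did in 1 tumor.

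**Figure D5:**
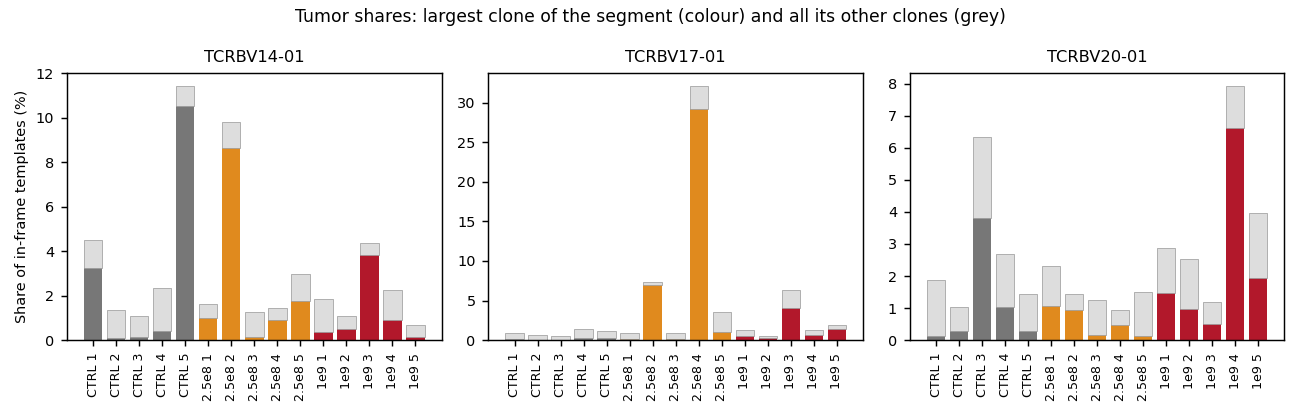
Share of in-frame templates (y axis, percent) of TCRBV14, TCRBV17 and TCRBV20 in each of 15 tumors (x axis), as stacked bars of the largest clone and of all other clones. The high bars are mostly the largest clone, as in the TCRBV17 bar of mouse 4 at 2.5e8, where 1 clone makes up 29.2% of 32.1%.

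These rearrangements were the large clones of the members and were followed in the other libraries of the same mouse. The TCRBV17 clone of mouse 3 at 1e9, the TCRBV14 clone of cured mouse 4 and the TCRBV24 clone were added after their values were seen. The capitals mark the CDR3 as far as the read reached.
TCRBV17 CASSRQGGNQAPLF, mouse 4 at 2.5e8: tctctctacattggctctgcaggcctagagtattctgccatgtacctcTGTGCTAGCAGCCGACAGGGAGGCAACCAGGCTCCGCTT
TCRBV17 with J2-7, mouse 2 at 2.5e8: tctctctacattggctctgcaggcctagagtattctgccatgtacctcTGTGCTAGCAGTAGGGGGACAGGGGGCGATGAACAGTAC
TCRBV17 with J2-1, mouse 3 at 1e9: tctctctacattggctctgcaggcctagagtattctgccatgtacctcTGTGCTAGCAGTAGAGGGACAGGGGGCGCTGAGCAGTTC
TCRBV14 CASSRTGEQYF, mRBC-CTRL mouse 5: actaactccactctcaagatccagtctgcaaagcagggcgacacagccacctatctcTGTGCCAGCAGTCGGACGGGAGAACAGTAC
TCRBV14 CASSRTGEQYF, cured mouse 4: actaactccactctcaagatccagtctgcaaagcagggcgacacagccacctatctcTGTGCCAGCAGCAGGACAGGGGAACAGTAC
TCRBV20 with J2-7, mouse 4 at 1e9: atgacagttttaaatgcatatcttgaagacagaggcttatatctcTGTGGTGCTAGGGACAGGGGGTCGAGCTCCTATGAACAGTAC
TCRBV24 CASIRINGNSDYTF, mouse 3 at 1e9: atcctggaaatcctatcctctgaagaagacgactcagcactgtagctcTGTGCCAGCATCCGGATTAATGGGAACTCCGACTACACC

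The TCRBV17 clone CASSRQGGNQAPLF, joined to J1-5, held 0 of 2683 templates in the day 0 blood of mouse 4 at 2.5e8, 266 of 2939 (9.05%, 95% Wilson interval 8.07% to 10.1%) on day 7 and 755 of 2589 (29.2%, 27.4% to 30.9%) in the tumor. It made up most of the high TCRBV17 share of that mouse in both tissues. The TCRBV17 clone of mouse 2 at 2.5e8, joined to J2-7, held 0 of 18519 templates on day 0, 59 of 4900 (1.20%) on day 7 and 622 of 8963 (6.94%) in the tumor. That of mouse 3 at 1e9, joined to J2-1, held 0 of 3016, 64 of 5944 (1.08%) and 164 of 4037 (4.06%) in the same order. All 3 were not detected in day 0 blood and were larger in tumor than in day 7 blood. They were chosen as large clones, so part of this follows from the choice. The day 0 counts allow shares of up to 0.112%, 0.0162% and 0.0995% in the same order. The tumor of mouse 3 at 1e9 held a second TCRBV17 clone that differs from the last at 1 residue of the CDR3 and is joined to J2-7, with 68 templates (1.68%).

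TCRBV14 held the CDR3 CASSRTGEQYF as a large clone in 2 mice. In mRBC-CTRL mouse 5 it went from 0 of 4983 templates on day 0 to 82 of 5002 (1.64%) on day 7 and to 1244 of 11822 (10.5%) in the tumor. In cured mouse 4 it held 77, 215, 133 and 209 templates (0.784%, 3.37%, 1.23% and 1.29%) in the 4 bleeds. The same CDR3 was built there from another nucleotide sequence, which differed at 4 of 87 bases. Of 15 nucleotide forms of this CDR3 in 3 mice, 13 never exceeded 1 template in a library, and the form of mRBC-CTRL mouse 5 was also read once in the tumor of mouse 3 at 2.5e8. The largest TCRBV14 clone of cured mouse 6, joined to J2-7, was found at each bleed with 287, 158, 264 and 383 templates (2.51%, 1.94%, 2.28% and 2.69%). In mouse 2 at 2.5e8, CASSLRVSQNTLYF went from 1 of 18519 templates on day 0 to 219 of 4900 (4.47%) on day 7 and 776 of 8963 (8.66%) in the tumor. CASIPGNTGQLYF did likewise in mouse 3 at 1e9, with 0, 70 (1.18%) and 154 (3.82%). TCRBV14 reached 1% of templates with a single clone in 10 blood and 6 tumor libraries.

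TCRBV20 reached 1% with a single clone in 3 blood and 6 tumor libraries. In mouse 4 at 1e9, the clone shown above held 0 of 4816 templates on day 0, 150 of 6579 (2.28%) on day 7 and 280 of 4238 (6.61%) in the tumor. The others were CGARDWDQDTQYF with 899 templates (3.81%) in the tumor of mRBC-CTRL mouse 3, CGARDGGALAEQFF with 75 (1.94%) and a clone joined to J1-6 with 44 (1.48%) in tumors of mice 5 and 1 at 1e9, and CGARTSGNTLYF and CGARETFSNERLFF with 145 (1.05%) and 157 (1.03%) in tumors of mouse 1 at 2.5e8 and mRBC-CTRL mouse 4. In blood of the cured mice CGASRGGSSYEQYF held 130 templates (1.39%) in mouse 1 after EL4 and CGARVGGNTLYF 56 (1.31%) in mouse 2 after EG7.OVA.

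TCRBV24 rearrangements that the files call in-frame reached 1% in 3 tumors and in no blood library, although they carry the stop codon shown above. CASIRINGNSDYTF held 65 templates (1.61%) in the tumor of mouse 3 at 1e9, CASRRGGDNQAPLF 59 (1.52%) in that of mouse 5 at 1e9, and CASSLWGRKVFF 32 (1.24%) in that of mouse 4 at 2.5e8. The sequence of the first, printed above, reads tag at that position. Each of these tumors also held other member clones over 1%. In mouse 3 at 1e9 they were the TCRBV17 J2-1 and J2-7 clones with 164 and 68 templates and TCRBV14 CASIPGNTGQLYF with 154. Mouse 5 at 1e9 had TCRBV17 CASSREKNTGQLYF with 53 and TCRBV20 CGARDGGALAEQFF with 75. Mouse 4 at 2.5e8 had TCRBV17 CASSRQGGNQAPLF with 755 and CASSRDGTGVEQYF with 32. Clones of non-members are not listed here, and whether any came from the same cells was not tested. TCRBV23 and TCRBV30 never reached 1%. By share, the largest TCRBV23 clone, joined to J1-3, held 36 templates (0.850%) in the tumor of mouse 4 at 1e9. The largest TCRBV30 share in a tumor was that of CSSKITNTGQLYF, with 9 templates (0.303%) in mouse 1 at 1e9, while the most templates, 38 (0.228%), stood in the tumor of mRBC-CTRL mouse 1. In the shallow day 7 blood of mouse 5 at 1e9, a TCRBV30 clone with 2 of 482 templates came to 0.415%.

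Non-productive rearrangements of the members were large in several of the same libraries, counted here as a share of all templates. The largest were an out-of-frame TCRBV24 rearrangement with 2362 of 58736 templates (4.02%) and an out-of-frame TCRBV14 rearrangement with 1545 (2.63%), both in the tumor of mRBC-CTRL mouse 2. Their CDR3s of 23 and 44 bases are no multiple of 3, and the sequences are printed to show the joints.
TCRBV24 out-of-frame: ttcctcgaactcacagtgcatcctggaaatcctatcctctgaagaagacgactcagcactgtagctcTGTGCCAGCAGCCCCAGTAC
TCRBV14 out-of-frame: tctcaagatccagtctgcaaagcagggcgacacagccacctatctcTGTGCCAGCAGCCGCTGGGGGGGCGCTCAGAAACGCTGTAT
They held 21 and 18 templates in the day 7 blood of that mouse and 0 each on day 0. The largest in-frame clone of the tumor, with 3659 templates, was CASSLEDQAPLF of the non-member TCRBV16. An out-of-frame TCRBV17 rearrangement held 1, 466 (2.88%) and 299 (1.05%) templates in day 0 blood, day 7 blood and tumor of mouse 4 at 1e9.

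Others stood beside the member clones named above. An out-of-frame TCRBV20 rearrangement held 0, 11 and 51 templates (1.28% in the tumor) in mouse 4 at 2.5e8, in the libraries where the TCRBV17 clone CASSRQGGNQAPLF held 0, 266 and 755. In cured mouse 4, an out-of-frame TCRBV24 rearrangement held 28, 57, 36 and 45 templates over the 4 bleeds, beside 77, 215, 133 and 209 of the TCRBV14 clone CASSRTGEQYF. By template count both pairs moved in the same direction, in libraries of unequal depth. In cured mouse 4 usable templates numbered 10832 before and 16201 after EL4, so equal directions of counts need not be equal directions of shares. Whether the paired rearrangements came from the same cells was not tested. In cured mouse 6 an out-of-frame TCRBV23 rearrangement held 45, 14, 5 and 2 templates over the 4 bleeds. An out-of-frame TCRBV30 rearrangement held 441 templates (0.6254%) in the tumor of mRBC-CTRL mouse 3 and 10 in its day 7 blood, and a stop-containing TCRBV17 rearrangement 281 in the tumor of mRBC-CTRL mouse 4 and 14 in its day 7 blood.

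CDR3s shared between mice were most frequent in TCRBV20. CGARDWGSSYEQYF was found in 17 of 27 mice, in 24 libraries, with 12 nucleotide forms and 99 templates in all, at most 22 in a library. In the other members the CDR3 found in most mice was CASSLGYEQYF in 8 mice for TCRBV14, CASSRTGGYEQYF and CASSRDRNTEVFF in 6 each for TCRBV17, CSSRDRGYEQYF in 6 for TCRBV30 and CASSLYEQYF in 5 for TCRBV24, while 7 CDR3s of TCRBV23 were tied at 3 mice. Of all in-frame CDR3s of a segment, 11.1% were seen in several mice for TCRBV20, 8.69% for TCRBV14, 6.09% for TCRBV17, 3.75% for TCRBV23, 2.81% for TCRBV24 and 2.26% for TCRBV30. This order also follows the number of CDR3s, from 10070 for TCRBV20 to 929 for TCRBV30, except that TCRBV24 had 4302 and TCRBV23 2424.

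Across the 66 blood libraries no other segment closely tracked a member. The non-member with the highest Spearman correlation of shares was TCRBV29 for TCRBV14 (0.17) and TCRBV17 (0.21), TCRBV31 for TCRBV20 (0.21), TCRBV15 for TCRBV23 (0.31), TCRBV01 for TCRBV24 (0.24) and TCRBV13-03 for TCRBV30 (0.23), out of 20 compared. The libraries share mice, and shares within a library sum to a fixed total, so these values are descriptions.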

How the data were processed

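TCRβ rearrangements of 81 libraries (66 blood, 15 tumor) were taken from the deposited immunoSEQ tables, in which the authors give 1 row per rearrangement with its template count, V and J names, frame and an 87-base sequence. In 81 of 81 libraries this deposited count matched the column of estimated genomes, and the fraction in the deposited tables was that count over its library's sum. The genome build and aligner are not given in the sources used here. Some rearrangements with 1 template differ from a large clone only in bases before the CDR3, and each counts as distinct here.

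In-frame templates per V segment, without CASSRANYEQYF and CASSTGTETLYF, were tested with edgeR 4.0.16 (quasi-likelihood, library totals without TMM factors, segments with a mean of at least 5 templates, Benjamini-Hochberg adjustment over all V segments, threshold 0.05) in R 4.3.3. Comparisons within mice held the mouse as a block. Pairing was by animal: deviations of tumor and day 7 blood of the same mouse correlated with a median r of 0.48 over 14 mice, those of day 7 and day 0 blood with -0.12 over 13. Mouse numbers across arms do not mark shared animals. Frame, J2 share and CDR3 length were compared per mouse with a two-sided sign-flip permutation test (100000 resamples, Python 3.11.15, scipy 1.17.1), and shares between groups with exact permutation tests. Alternatives were DESeq2 1.42.0, TMM factors, no filter, distinct rearrangements, the 2 clones kept in, single templates or largest clones left out, the replicate block changed and each mouse left out. The procedures were tested on simulated data. Intervals are 95% Wilson intervals, and a count of 0 was given a limit of 3 templates; both cover counting error only. Usable templates numbered 482 to 23598 per library.

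The members and lists were chosen with earlier results of these data known. Clones were named as the largest in-frame rearrangement of each member in treatment blood, rechallenge blood and tumor, the CDR3 found in most mice, and rearrangements at 1% or more in 3 tumors (none). Others were chosen after their values were seen. Of all rows, 82 (0.0141%) were not resolved to a V gene and were left out. The title of 1 library of a cured mouse after EG7.OVA gives mouse 1 where its sample code gives mouse 2, and it was taken as mouse 2.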

Additional observations from a re-analysis of the deposited data

Results flagged for a closer look

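In 14 of 90 groups of 4 to 7 libraries, 1 library stood apart from the rest of its group in the share of in-frame templates of a member, measured by its gap to the nearest library over the range of the group. The rule is set to flag about 1 in 20 groups of independent, normally distributed values. The groups checked here share libraries and denominators, so the number flagged was not tested against chance. The library was the highest in 13 groups and the lowest in 1, with 6 in tumors, 4 in day 7 blood and 0 in day 0 blood.

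For TCRBV14 these were the day 7 blood of mRBC-CTRL mouse 5 (3.90%, nearest 2.54%), the day 7 blood and the tumor of mouse 2 at 2.5e8 (6.20%, nearest 2.72%, and 9.82%, nearest 2.96%) and the day 65 blood of cured mouse 6 (5.09%, nearest 3.57%). For TCRBV17 they were the day 7 blood and the tumor of mouse 4 at 2.5e8 (10.8%, nearest 2.81%, and 32.1%, nearest 7.29%), the tumor of mouse 3 at 1e9 (6.39%, nearest 1.91%) and the blood of cured mouse 2 after EL4 (2.03%, nearest 1.62%). Large clones of the same segment that the report names were in 7 of these 8 libraries, all but that of cured mouse 2.

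Among the other members, TCRBV20 took 3.71% in the day 7 blood of mRBC-CTRL mouse 2 (nearest 3.48%), TCRBV23 0.958% in cured mouse 2 after EG7.OVA (nearest 0.693%, from 41 templates), and TCRBV24 1.03% in the tumor of mRBC-CTRL mouse 4 (nearest 0.575%). The low library was the blood of naive mouse 5 after EG7.OVA, with 0.9498% of TCRBV24 (nearest 1.14%, from 70 templates). TCRBV30 took 0.517% in the tumor of mRBC-CTRL mouse 1 (nearest 0.102%) and 0.342% in that of mouse 5 at 2.5e8 (nearest 0.103%, from 23 templates). Of 42 pairs of groups examined for changes in opposite directions in all mice, none showed them.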

How the results depend on the processing

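Of 1337 single values recomputed under the alternatives, 28 lost a call and 26 gained one. Another 10 reversed, that is, changed sign with a call under at least 1 setting. The remaining 1273 count as unchanged, which includes sign changes of values called under neither setting. Of 223 counts of members called, 202 stayed within 1.5 times the reported count. Among 1265 usage values, 118 that were called under neither setting changed sign, and these lie within the 1273.

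Keeping OT-1 and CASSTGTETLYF in the denominator moved the median of all segments by -1.36 (log2) in day 7 blood at 1e9, by -1.32 between tumor and blood, by 0.63 in tumors at 2.5e8, by -0.52 for the difference between cured and naive mice and by -0.38 around EG7.OVA in cured mice. Members called then numbered 6, 6, 1, 5 and 5 in these comparisons, and 1 each in naive mice and in cured against naive mice before EG7.OVA. Reversed values were TCRBV14 -1.17, TCRBV17 -1.33, TCRBV20 -1.28 and TCRBV30 -1.13 in day 7 blood at 1e9, TCRBV14 -0.36, TCRBV17 -0.36 and TCRBV24 -0.37 in cured mice around EG7.OVA, and TCRBV17 -0.42 and TCRBV20 -0.45 for the difference between cured and naive mice. The last reversal was TCRBV17 between tumor and blood, 0.32 by distinct rearrangements.

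Between tumor and day 7 blood, TMM and DESeq2 moved the median of all segments by 0.61 and 0.58 and called 0 members each, against 3. In tumors at 2.5e8 DESeq2 called 1 member against 0. Before EG7.OVA, exact permutation and no filter called 1 each, and around EG7.OVA in cured mice leaving out the largest clones called 1. From day 0 to day 7, exact permutation and no filter called 1 each. Counted by templates, the in-frame share called 2 members against 4 and the out-of-frame J2 share 1 against 6. The cause was not tested.

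Without the replicate block by mouse, 2 members were called from day 0 to day 7 (TCRBV17 0.67 and TCRBV23 -0.26, adjusted p = 0.0485 each), and TCRBV20 was lost between tumor and blood (-0.35, adjusted p = 0.397). With mouse numbers as a replicate block across arms, TCRBV17 in tumors at 2.5e8 was 2.02 (adjusted p = 0.165). The block changed no other call. Leaving out each mouse in turn gave 2 to 4 members between tumor and blood, with TCRBV24 called without mouse 5 at 1e9 (-0.68, adjusted p = 0.0412), 0 to 1 from day 0 to day 7 and in tumors at 2.5e8, and 0 in the other 8 usage comparisons. With 4 to 58 TCRBV30 templates in a blood library, small changes of that segment were not detectable at this depth.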

Other observations

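The large TCRBV17 clones of mouse 2 at 2.5e8 and mouse 3 at 1e9 begin with the same 9 residues, CASSRGTGG, and this start was followed in all libraries after their values were seen. It occurred in 21 mice and 32 libraries, in 30 CDR3s. In tumors it held 988 of 3099 TCRBV17 templates (31.9%) but 13 of 598 rearrangements (2.17%), and it was found in 6 of 15 tumors. The start was taken from large tumor clones, so its high share of tumor templates follows in part from that choice. In the tumors of mRBC-CTRL mice 3 and 4 and of mouse 3 at 2.5e8 it held 1 template each. In treatment blood it held 173 of 2918 templates (5.93%) and 19 of 1682 rearrangements (1.13%), and in rechallenge blood 28 of 4929 templates (0.5681%) and 23 of 3749 rearrangements (0.614%). By templates it took 626 of 653 TCRBV17 templates (95.9%) in the tumor of mouse 2 at 2.5e8, 232 of 258 (89.9%) in that of mouse 3 at 1e9 and 127 of 236 (53.8%) in that of mouse 5 at 2.5e8. The last tumor held the CDR3 of the mouse 2 clone with 60 templates, in another nucleotide form. Some forms with 1 template differ from a large clone only before the CDR3, so that the number of rearrangements is an upper count.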
